A study of Homo sapiens with 10 samples.

Results

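The let-7 family and miR-98 were followed across RNA purifications made with probes against chosen messenger RNAs. The members were the assays of the deposited quantification cycle (Cq) table named hsa-let-7a, hsa-let-7b, hsa-let-7c, hsa-let-7d, hsa-let-7e, hsa-let-7f, hsa-let-7g, hsa-let-7i and hsa-miR-98, with their star strands left out. They are 9 of the 745 human miRNA assays, which cover 742 miRNA names, and all 9 lie on panel 1, with 1 well each. HepG2, a human liver tumour line, was purified with probes for the p21 and the STAT3 mRNA and with a control probe, and PC-3, a human prostate cancer line, with a control and a p21 probe. p21 is a cyclin-dependent kinase inhibitor and STAT3 a cytokine-activated transcription factor. In every group the probe had been in the living cells for 24 hours, and the RNA it held was taken up on streptavidin beads and measured by SYBR Green quantitative PCR. The question was which miRNAs come down with each mRNA.

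Each of the 5 conditions was purified 1 time and run on 2 panels of different assays, which gave 10 samples. No difference between conditions therefore has a replicate check, and no test was made. What the control probe recognises and where the target probes lie on their mRNAs were not analysed here. The values are amounts recovered on the beads, in which more target mRNA, more miRNA per mRNA and material held by the beads without the target cannot be told apart. A Cq is the cycle at which the PCR signal crosses a threshold, so a lower Cq means more template. An assay was counted as detected at a Cq of at most 35.

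let-7 miRNAs are cut from hairpin precursors by Drosha and Dicer and are loaded onto Argonaute proteins, which they guide to partly complementary sites in mRNAs, mostly through the seed near their 5′ end. The family is known for repressing growth genes such as the RAS genes, MYC and HMGA2, and for being kept low in embryonic and many tumour cells by LIN28, which binds let-7 precursors. Its members come from several loci, some in clusters with miR-99, miR-100 and miR-125, and the mature strands are so alike that PCR assays for them can read each other's template.

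The mature sequences are shown because the members differ at few bases, which is what the assays had to tell apart. They are RefSeq entries of GRCh38.p14, written 5′ to 3′, and the capitals mark the seed, bases 2 to 8. All 9 members matched an entry by name.
let-7a: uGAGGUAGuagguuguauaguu
let-7b: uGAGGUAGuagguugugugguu
let-7c: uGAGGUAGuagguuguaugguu
let-7d: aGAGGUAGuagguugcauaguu
let-7e: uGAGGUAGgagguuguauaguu
let-7f: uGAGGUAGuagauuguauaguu
let-7g: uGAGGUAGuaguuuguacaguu
let-7i: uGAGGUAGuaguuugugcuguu
miR-98: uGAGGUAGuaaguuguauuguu

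All 9 are 22 bases long and share 1 seed, GAGGUAG, so they form a single seed group. The seed is carried by 11 mature names in RefSeq, the others being miR-4458 and miR-4500. Counted from 1 at the 5′ end of let-7a, let-7c differs from let-7a by A19G, let-7e by U9G and let-7f by G12A, 1 base each. let-7b differs by A17G and A19G, let-7d by U1A and U16C, let-7g by G12U and U18C, and miR-98 by G11A and A19U. let-7i is the most distant from let-7a, with G12U, A17G, U18C and A19U. Any 2 members differ at 1 to 6 bases, and let-7d and let-7i are the pair that differs at 6. GC content was highest in let-7b, with 10 of 22 bases, and lowest in let-7f and miR-98, with 7.

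The members were detected together in HepG2 and mostly missing in PC-3. In the HepG2 control purification 8 of 9 were detected, as were 7 in the p21 and 7 in the STAT3 purification of HepG2. In PC-3 none gave a Cq at all with the control probe, and 3 were detected with the p21 probe. Of the other 366 assays of panel 1, 27.3%, 33.1% and 36.1% were detected in the HepG2 control, p21 and STAT3 purifications, and 2.19% and 9.56% in PC-3 with the control and p21 probe. miR-98 was detected in none of the 5, with Cq values of 38.68, 37.14 and 35.88 in HepG2 with the control, p21 and STAT3 probe and no value in PC-3. The technical SD of 1 Cq, from 22 pairs of wells of the 6 assays present on both panels, was 0.634 cycles, offsets between the panels included. Among the 3 wells of the inter-plate calibrator UniSp3 on each panel, the pooled SD was larger, at 1.0049 cycles. The limits of 1.79 cycles and 1.96 log2 units used below rest on the assays present on both panels. They would be wider with the UniSp3 SD, and the gaps were not read against it. Only these spreads between wells could be given as errors, and the spread between purifications is unknown.

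**Figure D1:**
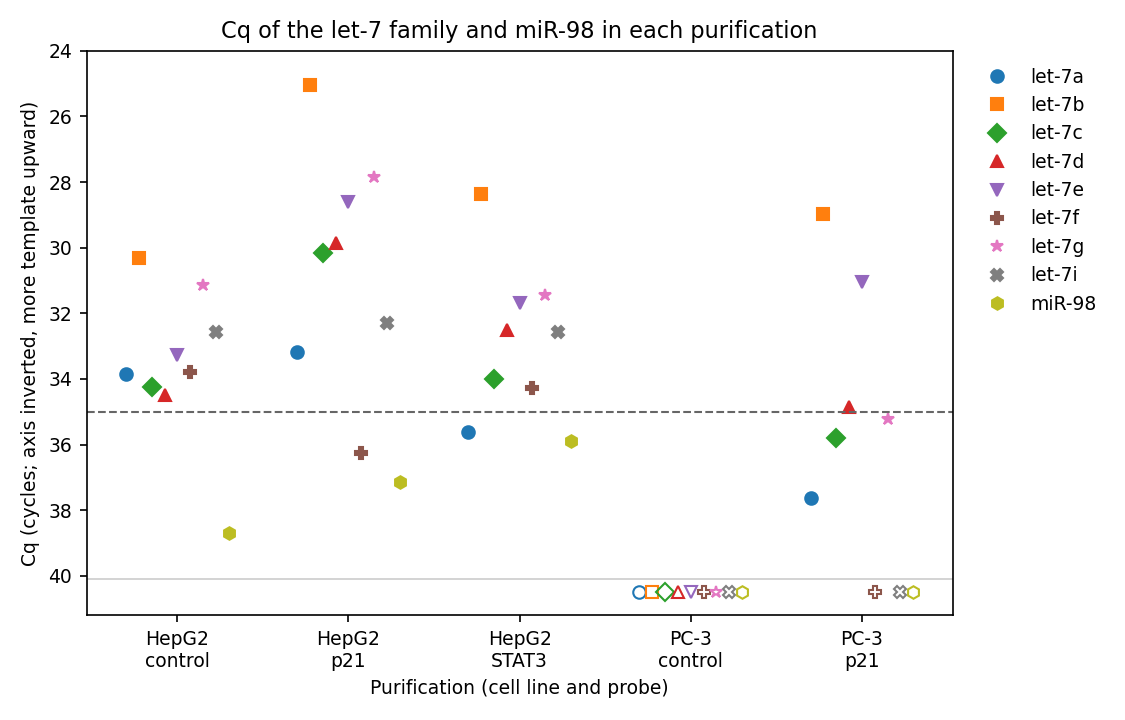
Cq of the 9 members in the 5 purifications, on an inverted axis in cycles so that more template lies upward. Each point is 1 well, the dashed line is the detection limit of Cq 35, and open symbols at the foot are wells with no Cq. let-7b is the topmost member in all 4 purifications in which any member was detected, and every member is at the foot for PC-3 with the control probe.

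let-7b had the lowest Cq of the members wherever any was detected, though in the HepG2 control its lead over let-7g, 0.83 cycles, was within the spread between wells. In HepG2 its Cq was 30.32 for the control, 25.04 for p21 and 28.36 for STAT3, and in PC-3 it gave no value for the control and 28.99 for p21. The p21 purification of HepG2 thus held the lowest let-7b Cq, and PC-3 with the p21 probe and HepG2 with the STAT3 probe lay close together. Among the panel 1 miRNA assays detected in each, let-7b ranked 7 of 108 for the HepG2 control, 3 of 128 for p21, 10 of 139 for STAT3 and 4 of 38 for p21 in PC-3. These ranks are of Cq values of different assays and are not corrected for how well each assay amplifies.

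Below let-7b the order of the members depended on the purification. let-7g was next in all 3 HepG2 purifications, at Cq 31.15, 27.83 and 31.44 with the control, p21 and STAT3 probe, but was only a trace in PC-3 with the p21 probe, at 35.22. let-7e was at 33.27, 28.62 and 31.67 in HepG2 and at 31.03 in PC-3 with the p21 probe, where it came directly after let-7b. let-7d was at 34.48, 29.86 and 32.51 in HepG2 and at 34.86 in PC-3 with the p21 probe, just inside the limit.

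let-7c, 1 base from let-7b, was at Cq 34.24, 30.16 and 34.01 in HepG2 and at 35.78 in PC-3 with the p21 probe. let-7i hardly moved between the HepG2 purifications, at 32.57, 32.30 and 32.56, and gave no value in PC-3. let-7a, the member with 3 precursor loci, was at 33.85, 33.18 and 35.63 in HepG2 and at 37.62 in PC-3 with the p21 probe. let-7f was at 33.77, 36.25 and 34.26 in HepG2 and gave no value in PC-3. let-7a and let-7f were therefore near or past the limit everywhere. In the HepG2 control let-7c and let-7d lay closer to it than either. Near the limit few template molecules are present, and the error can be larger than the SDs above.

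A step between neighbours in this order was read against 1.79 cycles, which is 2 SD of the gap between 2 wells. That SD comes from the assays present on both panels, and with the larger UniSp3 SD the limit would be wider. In the HepG2 control purification no step between neighbours exceeded it. With the p21 probe let-7b lay 2.79 cycles ahead of let-7g, and let-7c lay 2.13 ahead of let-7i, which separated let-7b, then let-7g, let-7e, let-7d and let-7c, then let-7i and let-7a. With the STAT3 probe only the step from let-7b to let-7g, 3.08 cycles, exceeded it. In PC-3 with the p21 probe let-7b was 2.04 cycles ahead of let-7e and let-7e 3.83 ahead of let-7d.

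In HepG2, 5 members were higher with the p21 probe than with the control probe, and let-7a, let-7i and let-7f were not. For each assay detected in both, the Cq with the control probe minus the Cq with the p21 probe gives a shift in log2 units, taking 1 cycle as 1 doubling. From it the median shift of the panel's miRNA assays detected in both, 1.30 for panel 1, was subtracted. The technical SD of a shift was 0.692, from 17 pairs of uncentred shifts of the assays present on both panels. The comparisons used for it share purifications, so the 17 pairs are not independent. A centred shift of at least 1, which is 2-fold, was called higher or lower. let-7b stood at 3.97, or 15.7-fold, let-7e at 3.35, or 10.2-fold, and let-7d at 3.31, or 9.93-fold. let-7c stood at 2.77, or 6.83-fold, and let-7g at 2.01, or 4.04-fold. let-7a was at −0.63 and let-7i at −1.03, which is 2.05-fold lower. The control wells of let-7d and let-7c, at Cq 34.48 and 34.24, were next to the limit, so the error of these shifts can be larger. With a limit of Cq 32 only let-7b and let-7g were measured in both, at 2.91 and 0.95.

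By these values 5 of the 7 members measured in both were called higher and 1 lower. Over all 103 assays measured in both, 37.9% were called higher and 36.9% lower, so a 2-fold call was common. The members' median was 2.77, against 0 for all assays by construction with quartiles of −1.36 and 1.73. let-7b, let-7e, let-7d and let-7c ranked 8, 9, 10 and 12 of the 103. let-7f passed the limit in the control purification but not with p21, and was at least 5.77-fold lower after centring, or 2.34-fold before it. Of the 375 panel 1 assays 21, or 5.6%, were detected in that way, let-7f among them.

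The size of each shift depends on what it is set against, and 1 choice of reference ends most calls. The small RNAs U6, SNORD38B and SNORD49A rose with the p21 probe as well, by 1.86, 2.82 and 2.63 log2 units before centring, while the spike-in UniSp6, added before reverse transcription, rose by 0.24 and the inter-plate calibrator UniSp3 fell by 2.28. Without centring the members' shifts ran from 0.27 for let-7i to 5.28 for let-7b, and 7 of 7 were above 0. Against the 6 reference assays, which are these small RNAs together with miR-423-5p, miR-191 and miR-103, let-7b alone of the 7 members stayed 2-fold higher, at 1.55, and the background of higher calls fell to 8.74%. let-7g then stood at −0.41. Against the small RNAs 4 members were 2-fold higher, beside 17.5% of all assays. Against UniSp3 7 of 7 were, where 85.4% of all assays were too. let-7i was above 0 without centring and against UniSp6, at 0.03 on the latter.

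**Figure D2:**
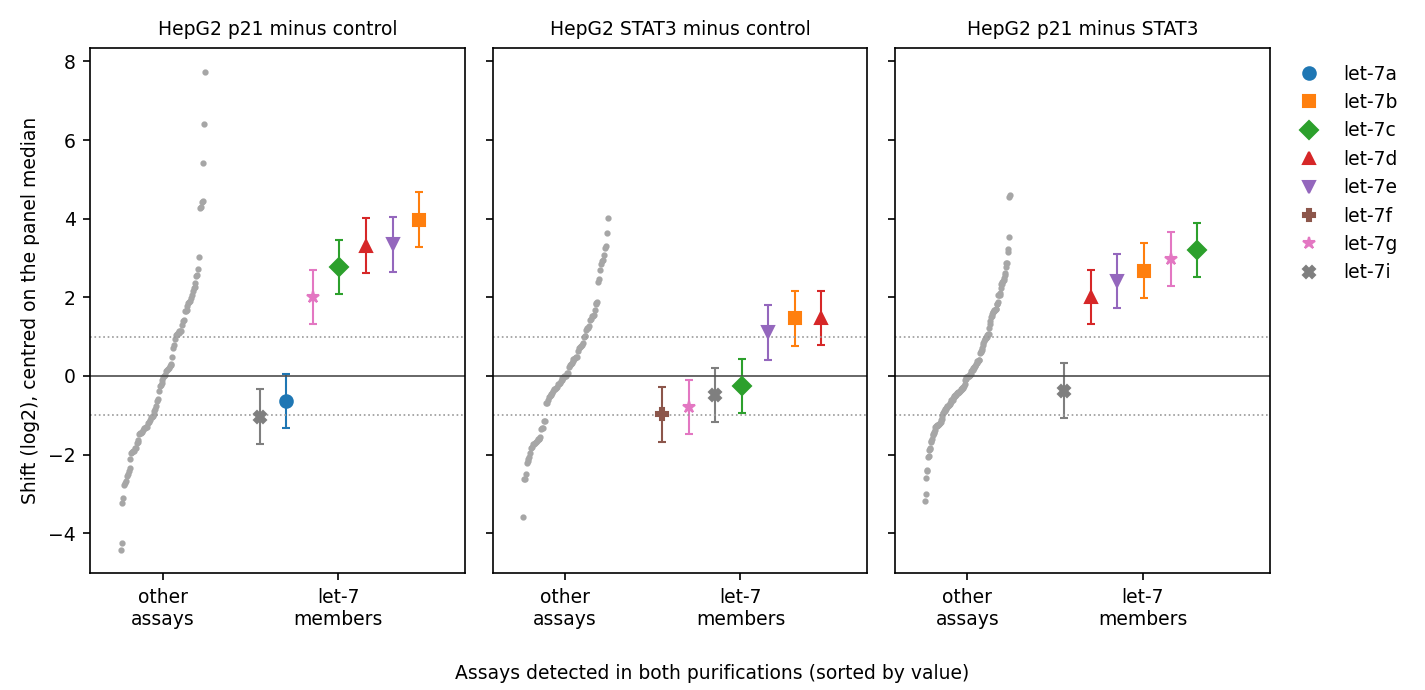
Centred shifts in log2 units in 3 comparisons within HepG2, for assays detected in both purifications. Grey points are the other miRNA assays sorted by value, coloured symbols are the members with bars of ± 1 technical SD (0.692), and dotted lines mark 2-fold. With p21 against control let-7g, let-7c, let-7e, let-7d and let-7b lie above 2 and let-7a and let-7i below 0.

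The differences among the members do not depend on the centring, since the same value was subtracted from each. With the p21 probe against the control 11 of 21 pairs of members differed by more than 1.96 log2 units, which is 2 technical SD of the gap between 2 shifts. With the larger UniSp3 SD this limit would be wider, and fewer pairs may exceed it. The share of such pairs among other assays was not computed. The quartiles of all 103 assays, −1.36 and 1.73, lie further apart than 1.96, so gaps of this size are not particular to the members. let-7a and let-7i each differed from let-7g and from let-7b, let-7e, let-7d and let-7c. The widest of the 21 gaps was let-7b over let-7i at 5.01, a 32.1-fold difference in recovery ratio. let-7b exceeded let-7a by 4.61, and let-7d exceeded let-7a by 3.95. let-7b over let-7g, at 1.96, lay at the threshold. let-7b, let-7e, let-7d and let-7c did not differ from each other beyond it, nor did let-7a from let-7i.

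The members share the seed but not the shift. let-7g and let-7i both carry G12U and U18C yet differed by 3.05 log2 units with the p21 probe against the control. let-7c and let-7e, 1 base each from let-7a, moved apart from it, let-7a lying at −3.41 from let-7c and at −3.98 from let-7e. let-7b, with the highest GC content at 45.5%, had the highest shift. let-7c, let-7e, let-7d and let-7i share a GC content of 40.9%, and their shifts ran from −1.03 to 3.35.

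With the STAT3 probe 3 members were called higher than with the control and 4 were not called. let-7d and let-7b stood at 1.47 each and let-7e at 1.11 against the control in HepG2, the 3 called higher. let-7c at −0.26, let-7i at −0.49, let-7g at −0.79 and let-7f at −0.98 were not called. let-7a was detected with the control probe only, at least 3.12-fold lower after centring, and 5.46% of the other 366 panel 1 assays were detected in that way. The members' median was −0.26, and 3 of 7 were higher and 0 lower, where 29% of the 100 assays measured in both were higher and 25% lower. U6, SNORD38B and SNORD49A rose by 1.44 to 1.91 before centring. Against them 0 of the 7 members were 2-fold higher, where 11% of the 100 assays were.

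Among the 21 pairs of members, 5 differed by more than 1.96 log2 units with the STAT3 probe against the control. How many pairs of other assays did so was not computed. let-7b and let-7d each exceeded let-7g, by 2.25 and 2.26, and let-7f, by 2.45 for both. let-7e exceeded let-7f by 2.09. let-7g was thus among the higher members for p21 and below zero for STAT3. These comparisons share the control purification, so they are not independent of each other.

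Setting the p21 directly against the STAT3 purification leaves the control out. let-7c was highest, at 3.20 log2 units or 9.21-fold, and ranked 5 of 155 assays. let-7g followed at 2.97, let-7b at 2.68, let-7e at 2.41 and let-7d at 2.01, and let-7i was at −0.38. So 5 of the 6 members measured in both were called higher with p21 and 0 lower, against 29% higher and 20% lower of 155 assays. The members' median was 2.55. let-7a was detected with p21 only, at least 2.26-fold higher, and let-7f with STAT3 only, at least 2.59-fold lower with p21. All 5 of the 15 pairs with a gap over 1.96 were gaps to let-7i, from 2.39 for let-7d to 3.58 for let-7c. Pairs of other assays were not counted here either. U6, SNORD38B and SNORD49A differed here by 0.42, 0.92 and 0.72 before centring, less than any of the 5 higher members, whose uncentred shifts began at 2.65.

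In PC-3 let-7b, let-7e and a trace of let-7d were detected with the p21 probe, and none of the 9 with the control probe. No shift could be measured, so only bounds against a control at Cq 35 were computed. The shift was at least 4.12 for let-7b, 17.4-fold, and at least 2.07 for let-7e, 4.21-fold. These bounds are centred on 1.89, a median of only 6 panel 1 assays detected in both, with U6, SNORD38B and SNORD49A up by 2.01, 1.95 and 2.44. let-7d, at Cq 34.86, gave no fold after centring. At the carry-over bounds described below, which this well itself sets, let-7b or let-7e alone would make up 100% of that let-7d signal. Their part in it was not tested. Of the 375 panel 1 assays, 8.53% were detected with the p21 probe only, against these 3 of 9 members.

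The lines differed in which members came with the p21 probe. HepG2 minus PC-3, after centring on the 31 panel 1 assays detected in both, was 2.49 for let-7d, 1.44 for let-7b and −0.09 for let-7e. The last value rests on the centring, since let-7e was 2.41 without it, 1.15 against the reference assays and 1.91 against the small RNAs. It was 1.34 against UniSp6 and 3.46 against UniSp3. With each of these, 3 of 3 members were 2-fold higher. So were 71.1%, 46.7%, 62.2%, 53.3% and 75.6% of the 45 assays, in the same order. Centred on the panel median, 2 of the 3 members were higher in HepG2, where 37.8% of 45 assays were higher and 31.1% lower. The gap between let-7d and let-7e, 2.59, was over 1.96, but it rests on 1 PC-3 well of let-7d at Cq 34.86, next to the limit. There the error can be larger than the SD behind 1.96, so a relatively better recovery of let-7e in PC-3 is not secured. let-7g, let-7c, let-7i and let-7a were detected in HepG2 only, as were 25.9% of panel 1 assays. let-7g was at least 25.4-fold and let-7c at least 5.04-fold higher there after centring, while for let-7i and let-7a the limit left no 2-fold bound. U6, SNORD38B and SNORD49A differed by −0.16, 0.58 and 1.08 before centring.

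With the control probe 8 of the 9 members were detected in HepG2 only, against 27.2% of panel 1 assays. let-7b was at least 8.51-fold and let-7g at least 4.79-fold higher in HepG2 after centring on 1.59, again a median of 6 assays. For the other members detected the bound was under 2-fold or below 0. U6 was equal between the lines, at 0.00, with SNORD38B at −0.29 and SNORD49A at 0.89 before centring. The controls UniSp6 and UniSp3 were higher in HepG2, by 1.33 and 1.62, so the references did not give 1 offset between the lines.

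Marker miRNAs of the tissue of origin were mostly missing. Of 6 liver-enriched miRNAs, among them miR-122, 0 were detected in HepG2 with the control and p21 probe and 4 with the STAT3 probe. All 5 neural markers, including miR-124 and miR-9, were detected in all 3 HepG2 purifications, with the lowest Cq at 28.97, 29.16 and 28.52. Of 5 blood cell markers 4, 3 and 3 were detected, and of 4 muscle markers 3, 2 and 3. Of 6 epithelial markers 0, 1 and 4 were detected. In PC-3 none of these was detected, apart from miR-205 with the p21 probe. The part of these signals in the let-7 values was not tested. let-7 members are present in most adult tissues, so their detection does not separate these sources.

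The precursor loci show which members could share a transcript. In GRCh38.p14 the hairpins of let-7a-1 (chr9:94175957-94176036), let-7f-1 (chr9:94176347-94176433) and let-7d (chr9:94178834-94178920) lie on the plus strand within the bounds of the lncRNA gene MIRLET7A1HG, let-7d also within those of LINC02603, with 310 and 2400 bases between neighbours. let-7a-2 (chr11:122146522-122146593, minus strand) lies in the lncRNA gene MIR100HG, 5635 bases from miR-100 and 46677 from miR-125b-1. let-7a-3 (chr22:46112749-46112822) and let-7b (chr22:46113686-46113768) lie 863 bases apart on the plus strand within the bounds of MIRLET7BHG and LOC124905135.

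let-7c (chr21:16539828-16539911) lies 658 bases after miR-99a on the plus strand in MIR99AHG. let-7e (chr19:51692786-51692864) lies between miR-99b, 104 bases away, and miR-125a, 389 bases away, on the plus strand within the bounds of SPACA6 and its antisense gene. let-7f-2 (chrX:53557192-53557274) and miR-98 (chrX:53556223-53556341) lie 850 bases apart on the minus strand within HUWE1. let-7g (chr3:52268278-52268361, minus strand, within WDR82) and let-7i (chr12:62603686-62603769, plus strand, within MIRLET7IHG) each stand alone. The gene table used gives bounds of genes without exons, so whether a hairpin is intronic or exonic was not analysed here. let-7a is made from 3 of these loci, let-7f from 2, and miR-125b also from more than 1, so their assays cannot assign signal to a locus.

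**Figure D3:**
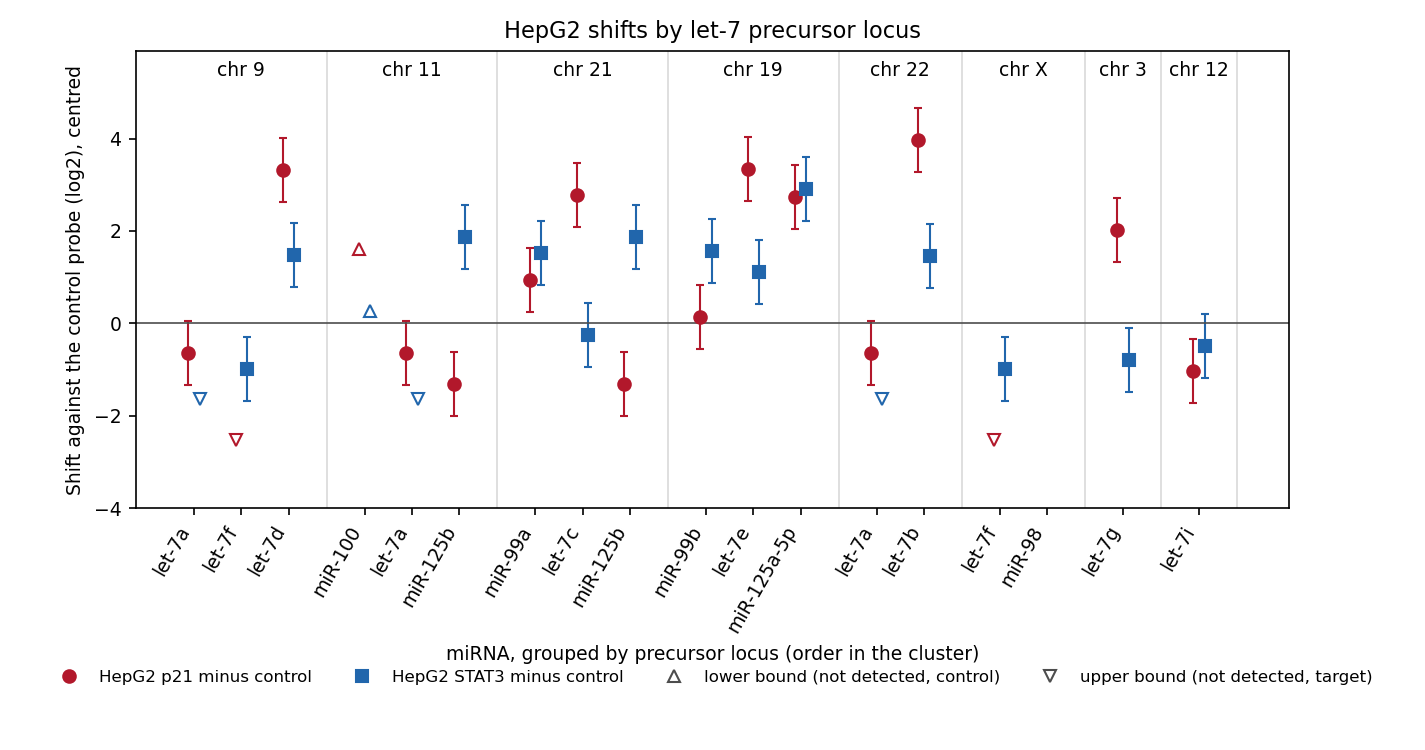
Centred HepG2 shifts in log2 units against the control probe for the miRNAs of each let-7 locus, in order of transcription, with p21 as circles and STAT3 as squares and bars of ± 1 technical SD (0.692). Open triangles are bounds for a miRNA not detected on 1 side, and let-7a, let-7f and miR-125b appear at each locus that can make them. With p21, let-7d and let-7b lie far above let-7a, and let-7c and let-7e above miR-125b and miR-99b.

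With the p21 probe against the control, miRNAs that can come from 1 locus did not all move alike. On chromosome 9 let-7d stood at 3.31 and let-7a at −0.63, while let-7f was not detected with the p21 probe. On chromosome 22 let-7b exceeded let-7a by 4.61 log2 units. With the STAT3 probe let-7d exceeded let-7f by 2.45. Since let-7a and let-7f are made from other loci too, these gaps do not show how the chromosome 9 and 22 loci themselves moved.

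On chromosome 21 let-7c stood at 2.77 with p21 against control and miR-99a at 0.94, a gap of 1.83 that lies within 2 SD. miR-125b, which other loci can supply too, was at −1.30, and let-7c exceeded it by 4.07. With STAT3 let-7c stood at −0.26, miR-99a at 1.53 and miR-125b at 1.86. The gap of let-7c to miR-99a, −1.79, lay within 2 SD, and that to miR-125b, −2.13, did not. Both let-7c wells behind these gaps, at Cq 34.01 and 34.24, were near the limit. Between p21 and STAT3 directly, let-7c was at 3.20, miR-99a at −0.42 and miR-125b at −3.00, so let-7c and miR-125b differed by 6.20 log2 units, or 73.5-fold.

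On chromosome 19 let-7e and miR-125a-5p stood close with p21 against control, at 3.35 and 2.73, while miR-99b was at 0.15, 3.20 below let-7e. With STAT3 miR-125a-5p stood at 2.91, miR-99b at 1.56 and let-7e at 1.11, and both gaps to let-7e lay within 2 SD. Between p21 and STAT3 let-7e exceeded miR-125a-5p by 2.43 and miR-99b by 3.65. At the carry-over bounds described below, let-7b would make up 100% of the HepG2 let-7e signal with p21, by construction, and 83.0% with STAT3. The part of let-7b in these gaps was not tested. In PC-3 with the p21 probe let-7e was at Cq 31.03, miR-125a-5p at 33.82 and miR-99b at 35.10, just past the limit. HepG2 minus PC-3 with the p21 probe was −0.09 for let-7e and 3.65 for miR-125a-5p. On chromosome 11 miR-100 was detected with p21 and not with the control, at least 3.08-fold higher, beside let-7a at −0.63.

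The star strands, cut from the opposite arm of the same hairpins, were measured by 9 assays, and let-7d* did not follow let-7d. let-7d* was detected in all 5 purifications, at Cq 30.14, 30.67 and 29.71 in HepG2 with the control, p21 and STAT3 probe and at 31.31 and 30.24 in PC-3 with the control and p21 probe. It spanned 1.60 cycles, whereas let-7d, from the same hairpin, spanned at least 5.14. With p21 against control let-7d* was at −1.83 and let-7d at 3.31, a gap of 5.14 log2 units. With STAT3 the gap was 1.53, within 2 SD. In PC-3, where the control probe gave no let-7d, let-7d* was present.

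let-7i* was at Cq 34.84 and 34.90 in HepG2 with the control and p21 probe, next to the limit, and its shift of −1.13 lay within 0.09 of that of let-7i after each panel was centred. let-7a-2* was detected only in HepG2 with the p21 probe, at 32.99. With the STAT3 probe let-7a* at 33.61, let-7b* at 34.06, let-7c* at 34.36 and let-7f-2* at 33.39 were detected. With the p21 probe let-7f-2* was at 34.25 and the other 3 were not detected, and with the control probe none of these 4 was. let-7g* gave no detection.

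The abundance of let-7b limits how much each other assay can have read from it. Where an assay's own signal is low while let-7b is high, their ratio is the most that let-7b can have contributed per molecule, if 1 cycle is 1 doubling and both assays respond alike to their own template. In HepG2 with the p21 probe, let-7b at Cq 25.04 faced let-7f and miR-98 past Cq 35, so at most 0.100% of let-7b was read by either. The same purification gave at most 0.354% for let-7a, which differs from let-7b at 2 bases, and 0.655% for let-7i, at 3 bases. PC-3 with the p21 probe gave at most 1.55% for let-7c, which differs at 1 base (A17G, which let-7b has and let-7c lacks), 1.55% for let-7g and 1.71% for let-7d, both at 4 bases. For let-7e, at 3 bases, the bound was 8.37%, the loosest of the 8, from the HepG2 p21 purification, where let-7b lay 3.58 cycles ahead of let-7e. With an efficiency of 90% per cycle the bounds were 0.168% for let-7f and miR-98, 0.538% for let-7a, 2.11% for let-7c and 10.1% for let-7e. The error of 1 such ratio is a factor of 1.86 for 1 SD.

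**Figure D4:**
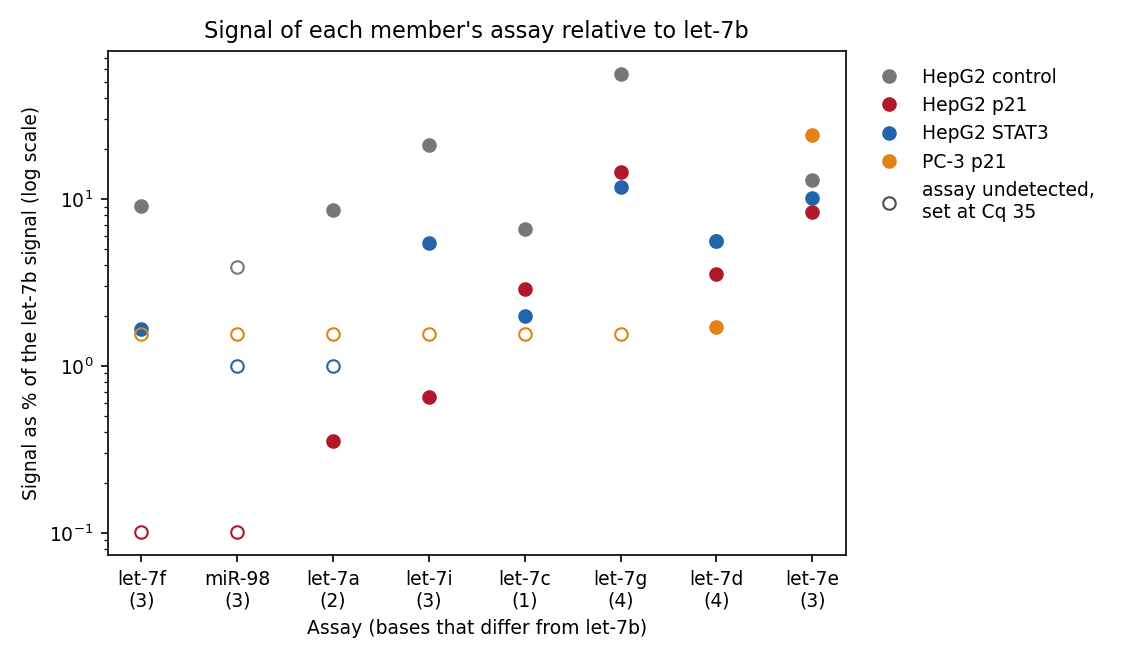
Signal of each other member's assay as a percentage of the let-7b signal of the same purification, on a log axis, with the number of bases that differ from let-7b in brackets. Open circles are assays that were not detected and were set at Cq 35, and the lowest point of each column is the bound on what the assay can have read from let-7b. The bounds run from 0.100% for let-7f and miR-98 to 8.37% for let-7e, and the HepG2 control and STAT3 points of let-7d lie on top of each other.

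These bounds were then set against the shifts. At its bound, let-7b would make up 53.9% of the let-7c signal, 48.3% of the let-7d signal and 10.7% of the let-7g signal in HepG2 with the p21 probe. With that taken off in both purifications, the let-7c shift of p21 against control fell from 2.77 to 2.04. The let-7d shift fell from 3.31 to 2.88 and the let-7g shift from 2.01 to 1.89. Centred on the panel median, each stayed over 2-fold. Against the reference assays let-7c, let-7d and let-7g stood at 0.35, 0.89 and −0.41 before anything was taken off. The bounds were taken as exact, although 1 SD of such a ratio is a factor of 1.86, so the remainders of let-7c and let-7d are uncertain. These remainders hold against let-7b alone. In the same purification let-7c at its bound could supply 68.8% of the let-7d signal, and let-7g 59.1% of the let-7c signal. Carry-over from several members together was not taken off. For let-7e, let-7a and let-7i the bound was set in the HepG2 p21 purification. At it let-7b would by construction make up 100% of each signal there, so no remainder can be given. How much of the let-7e shift of 3.35 is carry-over from let-7b therefore cannot be limited from these values. With the STAT3 probe let-7b could make up 77.5% of let-7c and 83.0% of let-7e. The shift of STAT3 against control then became −2.03 for let-7c and 0.05 for let-7e, in place of −0.26 and 1.11, while let-7d stayed at 1.47.

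Bounds between other members varied. let-7g gave at most 0.695% to the let-7f assay and 2.45% to the let-7a assay, from each of which it differs at 2 bases. At most 4.23% of let-7e and 12.3% of let-7c, each 1 base from let-7a, can have been read by the let-7a assay, and at most 28.4% of let-7a by the let-7f assay. The low let-7a and let-7f values in HepG2 with the p21 probe thus bound what these assays can read from their abundant relatives.

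The miRNAs most like the members over the 5 purifications were sought among 96 other assays detected in at least 3, by the root mean square distance of Cq profiles, each around its own mean, from the members' mean profile. They were miR-210 at 0.465 cycles, miR-15a at 0.476, miR-665 at 0.482, miR-196b at 0.545 and miR-1972 at 0.557, where the median distance was 1.16. Under Pearson correlation only miR-15a stayed among the 5 closest, so the choice of measure decides the names.

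The authors' deposited table of fold changes, headed as log but read here as linear, orders the members measured in both in the same way, since each was scaled alike. With p21 in HepG2 it lists let-7b at 32.9, let-7e at 21.3, let-7d at 20.8, let-7c at 14.3 and let-7g at 8.45, and let-7a, let-7i, miR-98 and let-7f at 1.35, 1.02, 0.849 and 0.363. For STAT3 the authors' deposited table lists let-7d at 5.47, let-7b at 5.44 and let-7e at 4.24. For p21 in PC-3 the authors' deposited table lists let-7b at 45.8 and let-7e at 11.1. It also lists let-7a, let-7c, let-7f, let-7g, let-7i and miR-98 at 0.710 there, the same value for each, although none was detected in either PC-3 purification. Rebuilt from the Cq with undetected wells at 35 and UniSp6 as the normaliser, 9 of 9 member entries for p21 in HepG2, 8 of 9 for STAT3 and 9 of 9 for p21 in PC-3 came out within 0.01 log2. The exception is let-7a with STAT3, which the authors' deposited table lists at 0.409.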

How the data were processed

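Per the labels, 5 purifications were each run on Exiqon panels 1 and 2, and the authors deposited unnormalised Cq values, 1 well per assay. The sources used here do not name the instrument, threshold or probe sequences. The authors' deposited fold changes are headed as log fold changes. They were read as linear ratios, because values rebuilt from the Cq match them in that form, and were used as an alternative. Shifts are Cq differences of assays detected (Cq at most 35) in both purifications, minus the median over the panel's miRNA assays, with 2-fold as the call. Assays detected in 1 of the purifications got a bound against Cq 35. With 1 purification per condition no test was made, and the error is the SD between wells of the assays present on both panels. The larger SD between UniSp3 wells was not used for the limits. PCR near Cq 35 starts from few molecules, so values there are less precise.

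The members, partners and lists were chosen with earlier results of these data known. All 9 members were named, with their star strands, the cluster partners miR-99a, miR-99b, miR-100, miR-125a-5p and miR-125b, the 5 assays with the closest profile and the reference assays. miR-202, also listed, was not detected. The alternatives were 6 centrings, limits of Cq 32 and 37, undetected assays at Cq 35, an efficiency of 90% per cycle and the authors' folds. The count of members higher and the spread of shifts were added after seeing the data. Computations used Python 3.11.15, pandas 2.3.3 and numpy 2.4.6 and were tested on simulated data.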

Additional observations from a re-analysis of the deposited data

How the results depend on the processing

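Centring, detection limit and efficiency were changed 1 at a time. Gaps between members are not touched by centring. With p21 against control in HepG2 the members' median, 2.77, became 4.07 without centring, 0.35 against the reference assays, 1.64 against the small RNAs, 3.84 against UniSp6, 6.35 against UniSp3, 1.93 at Cq 32 (2 members) and 3.84 from the authors' deposited folds. The count of members 2-fold higher, 5, became 1 against the reference assays, 4 against the small RNAs, 7 against UniSp3 and 1 of 2 at Cq 32. The share of all assays 2-fold higher, 37.9%, became 8.74%, 17.5%, 85.4% and 27.3% in the same order. let-7i, at −1.03, turned to 0.27 without centring, 0.0329 against UniSp6, 0.0328 in the authors' folds and 2.55 against UniSp3, and let-7g turned to −0.41 against the reference assays. The median over all 103 assays moved from 0 to −2.25 against the reference assays.

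With STAT3 against control the median, −0.26, became −1.88 against the reference assays, −1.52 against the small RNAs, 0.72 against UniSp6 and in the authors' folds, 1.53 against UniSp3 and −1.07 at Cq 32. The count of 3 became 0 against the reference assays, the small RNAs and at Cq 32, and 6 against UniSp3. Over all assays the share, 29%, became 9%, 11%, 16.7% and 71% in the same order. Against the reference assays let-7b stood at −0.15, let-7d at −0.14 and let-7e at −0.51, and against the small RNAs let-7e at −0.16. For p21 against STAT3 the median, 2.55, became 1.53 against the reference assays and 4.16 against UniSp3. At Cq 32, 3 of 3 members were higher, beside 27.3% of 44 assays.

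For p21 in HepG2 against PC-3 the median, 1.44, became 3.95 without centring, 2.69 against the reference assays, 3.45 against the small RNAs, 2.88 against UniSp6, 5.00 against UniSp3 and 2.55 at Cq 37. The count of 2 became 3 without centring and against the reference assays, the small RNAs, UniSp6 and UniSp3, 1 at Cq 32, 4 at Cq 37 and 4 with undetected assays at 35. At Cq 32 the HepG2 control and STAT3 purifications kept 2 and 3 members, and at Cq 37 PC-3 with p21 had 5. A centring shifts all assays of a panel by 1 value, and a limit changes which assays count. No paired analysis was possible because each group holds 1 sample.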
